A study of Mus musculus with 40 samples.

Results

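PLX5622, mixed into the chow, blocks the colony stimulating factor 1 receptor (CSF1R) and is used to remove mononuclear phagocytes (MP). The comparison described here asks whether the RNA response to PLX5622 differed between the retina and the choroid of the same mouse. All 40 libraries of the series entered it, 1 retina and 1 choroid from each of 20 mice. For each gene the value was log2(normalized count + 1) in choroid minus that in retina, and mice fed PLX5622 were set against mice fed control food with genotype as a factor. Of 54307 listed genes, 25626 had a mean of at least 1 in either tissue and were tested.

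All mice carried 2 floxed Tgfbr2 alleles and received tamoxifen from 6 to 7 weeks of age. Control mice (CreNeg) had no Cre, and Tgfbr2ΔEC mice (CrePos) carried the tamoxifen-inducible Cdh5-CreERT2, which is driven by an endothelial cadherin promoter. Each genotype had 5 mice on control food and 5 on PLX5622, which was fed from the first tamoxifen dose to the end. Each eye received 6 laser spots to induce choroidal neovascularization, and the tissues were taken 3 days after the laser, so no unlasered eye was included. In this bulk RNA, Tgfbr2 did not separate the genotypes, with 9434 to 12800 normalized counts in control choroids and 8729 to 12000 in Tgfbr2ΔEC choroids.

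MP depend on CSF1R signalling for survival, which its ligands CSF1 and IL-34 provide. Microglia are the resident MP of the neural retina and are classically marked by Tmem119 and P2ry12, while the choroid also holds border macrophages marked by genes such as Mrc1, Lyve1 and Cd163, and monocyte-derived cells. In bulk tissue, fewer cells of a type and less RNA per cell cannot be told apart.

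The libraries held about 20940403 to 30421581 reads per retina and 21628874 to 28174821 per choroid, estimated from the smallest steps between low values. That gives a floor of 3 reads at about 2.97 normalized counts in the retinas and 3.14 in the choroids of PLX5622-fed mice. Some libraries stood apart. The retinas of mice 1, 5 and 6, all on control food, held 186.5 to 245.8 normalized counts of Ccr2, a chemokine receptor of inflammatory monocytes, against 2.18 to 15.1 in the other 7 control-food retinas. Neural retina genes were present in every choroid, with a mean log2 level over 10 genes of 11.2 to 12.7 in Tgfbr2ΔEC mice on control food and 8.74 to 10.2 on PLX5622. In control mice this level spanned 7.65 to 10.4 on control food and 7.35 to 12.7 on PLX5622, with mouse 15 the highest. The retinas had a level of 15.7 to 16.3 for the same genes, and the choroids were high in melanocyte genes (13.3 to 13.9 against 3.17 to 6.93 in retina). Where leaving out mice 1, 5 and 6 ended the call of a gene named here, or where the neural retina level did, that value stands beside it.

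**Figure D1:**
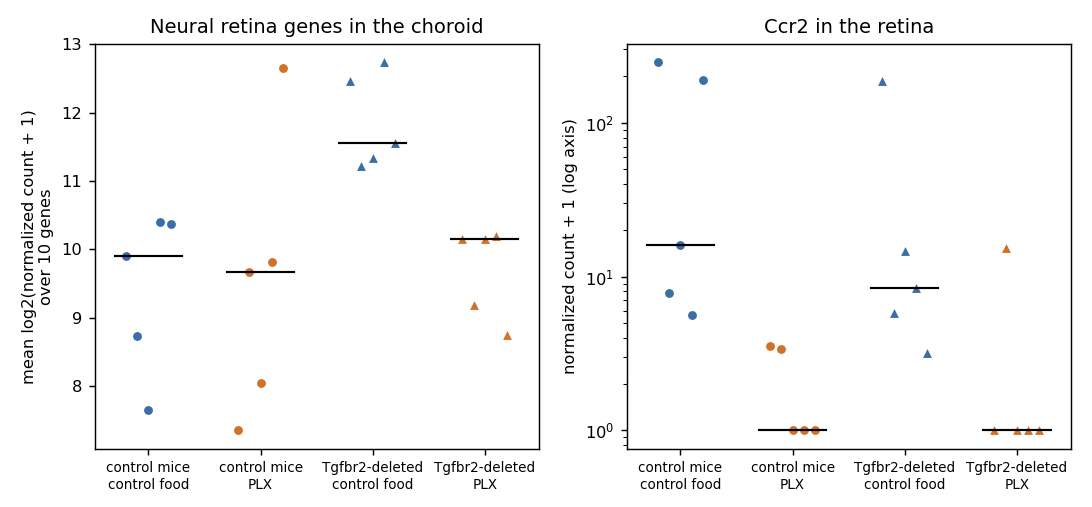
Left, the mean log2(normalized count + 1) of 10 neural retina genes in each choroid, and right, Ccr2 in each retina as normalized count + 1 on a log axis, by genotype and diet (5 mice per group, bars at the medians). The choroids of Tgfbr2ΔEC mice on control food lie at 11.2 or above, and 3 control-food retinas lie above 186 for Ccr2.

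The response differed between the tissues for 233 genes (limma, Benjamini-Hochberg adjusted p at or under 0.05), and before adjustment 2355 genes had p under 0.05. For 93 genes (0.363% of those tested) the tissue difference was positive, which means a deeper fall in the retina or a rise in the choroid. For 140 genes (0.546%) it was negative, which means a deeper fall in the choroid. The split depended on the setting, with 73 positive and 240 negative genes when 5 was added before the logarithm in place of 1, and 22 positive and 10 negative in control mice alone. Over all genes tested the median tissue difference was 0.002 on the log2 scale. Within a tissue, 1204 genes (4.7%) fell and 511 (1.99%) rose in the choroid, whereas 231 (0.901%) fell and 4 (0.0156%) rose in the retina. Without mice 1, 5 and 6, a choice made after the data were seen, 182 genes had a tissue difference, 57 of them positive and 125 negative, and the choroid count moved from 1715 to 1135 genes.

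The 2 directions were made up differently. Of the 93 positive genes, 64 fell in both tissues, 12 fell only in the retina by the test, 12 rose in the choroid with no call in the retina, 1 fell in the retina and rose in the choroid, and 4 passed in neither tissue alone. Of the 140 negative genes, 137 fell in the choroid with no call in the retina and 3 fell in both. As a description of genes picked by this same contrast, the 81 positive genes with a control-food mean of at least 10 in both tissues kept a median of 3.17% of that mean in the retina and 34.4% in the choroid. The 101 such negative genes kept a median of 99.1% in the retina and 46.6% in the choroid. Over all 15786 genes at that level the median was 100.0% in both tissues.

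**Figure D2:**
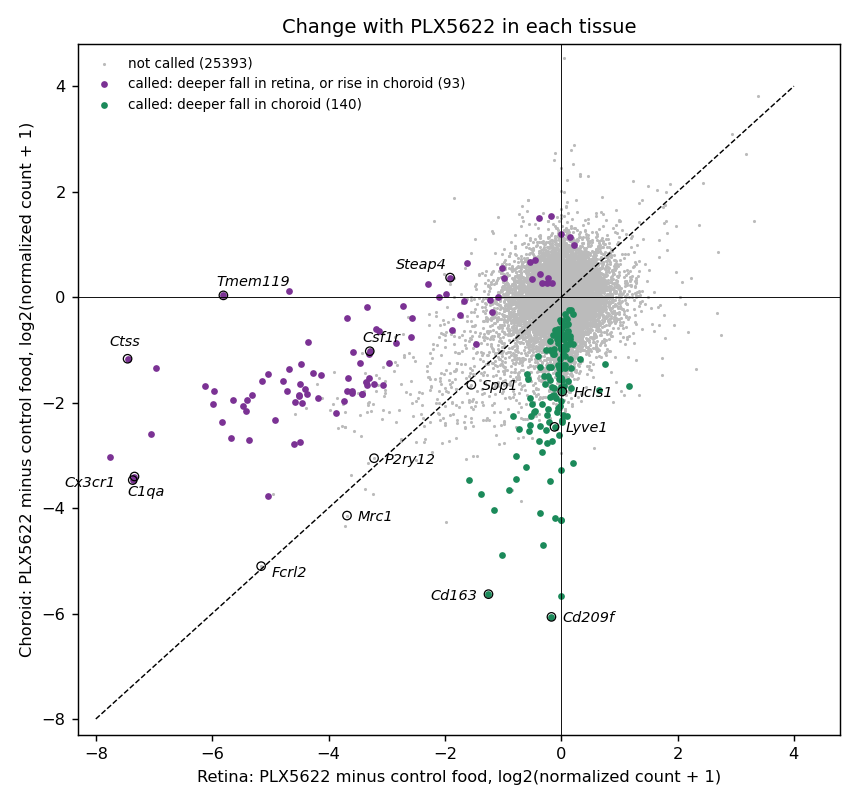
Change with PLX5622 in the retina (x axis) and the choroid (y axis), both as PLX5622 minus control food on the log2(normalized count + 1) scale, 1 point per gene tested. Genes called for the tissue difference lie off the dashed line of equal change, and the 93 positive genes spread to -7.75 in the retina while the 140 negative genes have a median of -0.03 there, with the lowest at -1.59.

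General MP genes were lost further from the retina than from the choroid. Of all genes tested, 0.363% had a positive and 0.546% a negative tissue difference, while 0.901% fell in the retina and 4.7% in the choroid. Of 24 genes on a list common to all MP, 15 had a positive and 0 a negative tissue difference, with 22 falling in the retina and 23 in the choroid. The median change of the list was -5.23 in the retina and -1.89 in the choroid, against 0 in both over all genes. Of 13 microglia genes tested, 8 had a positive and 0 a negative tissue difference, 11 fell in the retina and 8 in the choroid, and the medians were -3.22 and -0.9. After PLX5622 the retinal level stood at or under the floor for 57 of the 93 positive genes, so that a fold in the retina is at most a lower bound, and for 3 of the 93 the control-food mean was also at or under it, so that no fold can be given. The size and the call of such genes depend on the constant added before the logarithm, and with 5 in place of 1 the call was kept by 52 of the 90 positive genes that the choroid expressed more highly on control food and by all 99 such negative genes. In normalized counts, however, the choroid lost more than the retina for 68 of the 93, and for 87 the choroid after PLX5622 still held more than the retina on control food.

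The 2 genes with the lowest p in each direction, of those with a mean of at least 10 in both tissues and an entry among the RefSeq promoters (build GRCm38.p6), are shown by the 250 bases before their start, written 5′ to 3′. Capitals mark GAGGAA on either strand (TTCCTC on the other), the core letters bound by PU.1, the transcription factor encoded by Spi1 that myeloid cells depend on. These letters stood in 23.3% of 32851 promoters of the same length, in 31 of 79 promoters of positive genes (39.2%) and in 46 of 126 of negative genes (36.5%). A second motif searched, TGCTGA on either strand, letters found in sites of MAF-family factors, stood in 16.1% of all promoters, 22.8% of those of positive genes and 14.3% of those of negative genes. A match is a description of the sequence and not a bound site. The first pair belongs to genes that fell further in the retina and the second to genes that fell in the choroid with no call in the retina.
Mpeg1, chr19:12460520-12460769, plus strand: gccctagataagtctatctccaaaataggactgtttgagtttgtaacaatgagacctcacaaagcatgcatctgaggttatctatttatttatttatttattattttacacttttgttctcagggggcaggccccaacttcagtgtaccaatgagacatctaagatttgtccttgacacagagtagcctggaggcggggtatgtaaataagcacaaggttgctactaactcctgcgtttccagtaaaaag
Ctss, chr3:95526536-95526785, plus strand: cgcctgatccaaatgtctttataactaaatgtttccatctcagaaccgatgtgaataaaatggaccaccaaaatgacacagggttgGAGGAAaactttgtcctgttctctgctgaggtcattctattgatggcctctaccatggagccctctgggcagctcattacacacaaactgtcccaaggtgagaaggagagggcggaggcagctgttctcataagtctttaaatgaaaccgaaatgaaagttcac
Hcls1, chr16:36934733-36934982, plus strand: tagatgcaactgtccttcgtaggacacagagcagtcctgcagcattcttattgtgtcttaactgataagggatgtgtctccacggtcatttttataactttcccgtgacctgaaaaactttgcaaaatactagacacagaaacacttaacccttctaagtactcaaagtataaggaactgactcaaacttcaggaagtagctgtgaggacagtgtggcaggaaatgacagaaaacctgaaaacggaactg
Mgl2, chr11:70130107-70130356, plus strand: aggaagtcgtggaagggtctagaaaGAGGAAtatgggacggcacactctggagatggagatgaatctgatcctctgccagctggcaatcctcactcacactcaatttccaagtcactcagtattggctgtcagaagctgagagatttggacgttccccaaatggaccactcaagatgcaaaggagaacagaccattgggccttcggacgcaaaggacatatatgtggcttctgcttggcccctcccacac

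Tmem119 (ENSMUSG00000054675, GRCm39 chr5:113931781-113938577), a membrane protein used as a microglia marker, had the lowest p of all genes. In the retina it ranged from 47.7 to 81.7 normalized counts (median 65.8, n = 10) on control food and from 0 to 1.07 (median 0) on PLX5622, where 8 of 10 retinas were listed at 0. In the choroid it ranged from 1331 to 1882 (median 1554) on control food and from 1266 to 2002 (median 1587) on PLX5622. The retinal groups did not overlap and the fall was at least 21.7-fold, whereas the choroidal groups overlapped throughout. The change was -5.81 ± 0.17 (log2, SE) in the retina and 0.03 ± 0.09 in the choroid, and the tissue difference was 5.84 ± 0.22 (adjusted p = 6.43e-12). Over the 63504 relabellings of diet within genotype, the exact two-sided permutation p was 3.15e-05, the smallest they can give. The microglia-list genes Olfml3 and Rnase4 also fell in the retina only by the test, from a mean of 195.1 to 52.8 for Olfml3 and from 105.1 to 45.9 for Rnase4. In the choroid Olfml3 changed by 0.01 and Rnase4 by -0.05 on the log2 scale, with neither called. Without mice 1, 5 and 6 the tissue difference of Rnase4 was 0.97 (adjusted p = 0.117), and with the neural retina level of the choroid as a covariate that of Olfml3 was 1.93 (adjusted p = 0.0705).

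The other MP genes named in this paragraph fell in both tissues, and further in the retina on the log2 scale. Cx3cr1, the fractalkine receptor, ranged from 143 to 375 normalized counts in control-food retinas and from 0 to 4.19 with PLX5622. In the choroid it ranged from 1300 to 1996 and from 94.4 to 219.8. The groups were apart in both tissues, with 9.16% of the control-food mean left in the choroid and a fall of at least 79.1-fold in the retina, and the tissue difference was 3.895 ± 0.297 (adjusted p = 2.62e-07). Ctss, the lysosomal protease cathepsin S, ranged from 428.1 to 980.2 in control-food retinas and from 0 to 15.3 with PLX5622. Its choroidal values ran from 11330 to 16920 and from 4379 to 9517. It kept 0.701% of its mean in the retina and 45.1% in the choroid, which gave the largest tissue difference of the 93 positive genes, 6.29 ± 0.46 (adjusted p = 1.43e-07). Mpeg1, the pore-forming protein perforin-2, kept 0.806% in the retina and 39.4% in the choroid. Tyrobp, the adaptor DAP12 that couples TREM2 to kinases, kept 32.8% in the choroid and fell at least 35.3-fold in the retina. Selplg, the P-selectin ligand, kept 30.7% in the choroid and Fcgr3, a low-affinity IgG receptor, 26.6%, with falls of at least 56.4-fold and 21.6-fold in the retina. For these 4 genes the groups did not overlap in either tissue.

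The 3 chains of C1q, the recognition molecule of the classical complement pathway, moved together. C1qa ranged from 190.9 to 552.9 normalized counts in control-food retinas and from 0 to 7.59 with PLX5622. In the choroid it ranged from 4684 to 6232 and from 296 to 841.3. Both tissues lost most of it, with 9.89% left in the choroid and a fall of at least 119-fold in the retina. The tissue difference was 3.93 ± 0.44 for C1qa, 4.46 ± 0.48 for C1qb and 4.71 ± 0.39 for C1qc (adjusted p = 2.92e-05, 2.41e-05 and 8.04e-07). Among 18 complement genes tested, 5 had a positive difference, against 0.363% of all genes tested. These were the C1q chains, the anaphylatoxin receptor C3ar1 and the integrin chain Itgb2. One had a negative difference, against 0.546% of all genes tested. This was Cfp, which encodes properdin, the stabilizer of the alternative pathway. Cfp fell in the choroid from 678.6 to 1364 down to 181.6 to 396 with no overlap, while the retinal values of 226.1 to 535.5 and 203.3 to 577.2 overlapped (tissue difference -1.72 ± 0.28, adjusted p = 0.00192). C3, the central component, had 19.6 to 398.3 in control-food and 29.5 to 217.4 in PLX5622 retinas, a choroidal change of -0.03, and no called difference (1.05 ± 0.56, adjusted p = 0.614).

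The drug target and its ligands were read in both tissues. Csf1r ranged from 6490 to 8902 normalized counts in control-food choroids and from 3177 to 4986 with PLX5622. In the retina the ranges were 367.7 to 867.2 and 16.7 to 119.7. The groups were apart in both, but 49.3% remained in the choroid and 10.9% in the retina, a tissue difference of 2.27 ± 0.30 (adjusted p = 0.000179). Csf2ra, the GM-CSF receptor alpha chain, went the other way, with 1174 to 1854 falling to 530.8 to 904.1 in the choroid and 567.2 to 998.7 against 512.4 to 1010 in the retina (-1.15 ± 0.14, adjusted p = 0.000108). The ligands were not called in either tissue. The tissue difference was 0.45 for Csf1 (95% confidence interval -0.09 to 0.99, adjusted p = 0.651) and 0.65 for Il34 (0.08 to 1.22, adjusted p = 0.439). Kit, the stem cell factor receptor, rose in the choroid by 0.42 (adjusted p = 0.042) with no called tissue difference (0.26 ± 0.20, adjusted p = 0.799). In all, 1 of 12 genes of the CSF1 receptor axis had a positive and 1 a negative difference (0.363% and 0.546% of all genes tested).

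**Figure D3:**
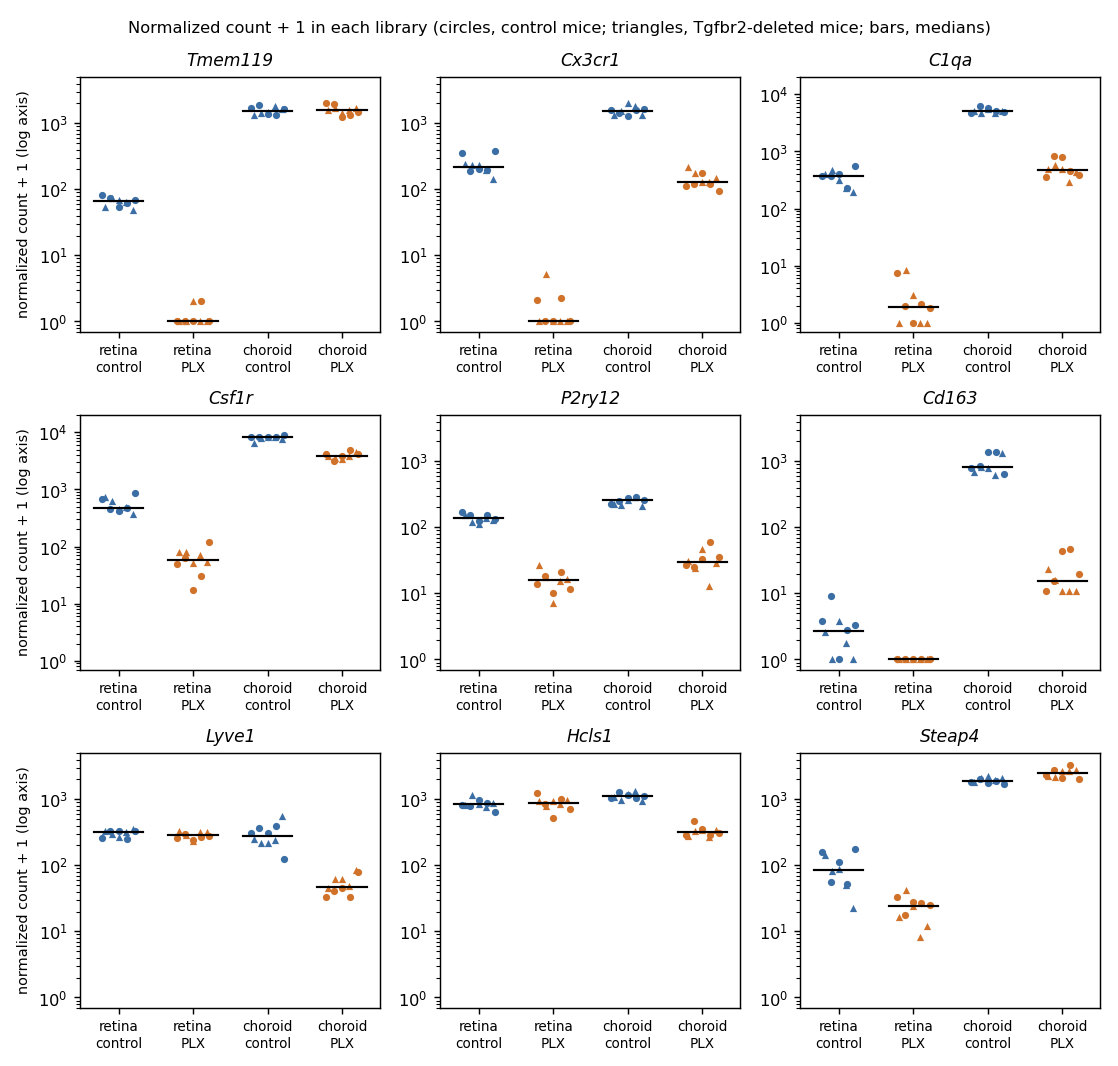
Normalized count + 1 on a log axis in each library for 9 genes, by tissue and diet (10 mice per column, circles for control mice, triangles for Tgfbr2ΔEC mice, bars at the medians). Tmem119 is near 1 in PLX5622 retinas and above 1200 in all choroids, whereas Lyve1 and Hcls1 separate by diet in the choroid alone and P2ry12 separates in both tissues alike.

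Among the negative genes with a mean of at least 10 in both tissues, 99 fell in the choroid with no call in the retina. Over all genes tested, with or without a called tissue difference, 1001 fell in the choroid with no call in the retina. Hcls1 (ENSMUSG00000022831, GRCm39 chr16:36754709-36783579), an actin-binding adaptor of blood cells, ranged from 936.5 to 1318 in control-food choroids and from 265.5 to 470.4 with PLX5622. In the retina it ranged from 645.1 to 1154 and from 519.4 to 1248. The choroidal groups were apart and 29.1% remained, whereas the retinal groups overlapped and 103% remained (tissue difference -1.81 ± 0.18, adjusted p = 1.23e-05). Lyve1 (ENSMUSG00000030787, GRCm39 chr7:110448585-110462460), a hyaluronan receptor of lymphatic endothelium and some macrophages, ranged from 125.7 to 560.9 in control-food choroids and from 31.8 to 84.6 with PLX5622. Its retinal ranges of 251.5 to 348.9 and 230.5 to 331.6 overlapped (-2.35 ± 0.25, adjusted p = 2.13e-05). Cd83, a surface protein of activated antigen-presenting cells, fell in the choroid from 310.4 to 513.4 on control food to 103.7 to 167.3 on PLX5622 and kept 91.7% in the retina, and Cyrib, a regulator of Rac1, kept 51.5% and 100.0%. The lectin Mgl2 kept 15.4% and 82.9%, and the protease legumain, encoded by Lgmn, 41.3% and 96.4%. The collagen receptor Lair1 and the signalling adaptor Pik3ap1 fell in both tissues by the test, with 17.9% and 21.5% left in the choroid and 59.3% and 55.6% in the retina.

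A higher level in the retina than in the choroid on control food was seen for 41 of the 140 negative genes, against 3 of the 93 positive genes and 50.4% of all genes tested. These include Cyrib and Lyve1 and, picked after their values were seen, Samsn1, Camk1d, Slit1 and Sall3. Slit1, an axon guidance ligand, ranged from 19.2 to 65.4 in control-food and from 1.84 to 51.3 in PLX5622 choroids, with 318.4 to 780.3 and 249.9 to 826.7 in the retinas. Since the neural retina level of the choroids was also lower on PLX5622 in Tgfbr2ΔEC mice, it was added as a covariate. In these mice the level was 11.2 to 12.7 on control food and 8.74 to 10.2 on PLX5622, with no overlap. The covariate therefore cannot be separated from diet in them. With the covariate, 28 of these 41 genes and 81 of the other 99 negative genes were still called. All 140 kept their sign, but they were picked by the same contrast. The median difference of the 41 genes was -1.12 without and -1.03 with the covariate. Camk1d and Sall3 lost the call with the covariate (-1.2 and -2.12, adjusted p = 0.0511 and 0.113), against -1.35 and -2.57 without it. Slit1 kept the call at -1.56 (adjusted p = 0.0127), against -2.04 without the covariate. For the neural retina list itself 0 of 10 genes were called, with a median change of -1.1 in the choroid and 0.09 in the retina. Without mice 1, 5 and 6, 23 of the 41 genes were called. Slit1, Camk1d and Sall3 were not, at -1.84, -1.38 and -2.55 (adjusted p = 0.0952, 0.0685 and 0.0837).

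Border macrophage genes fell mainly in the choroid by the test, but many had little retinal level to lose. Of 18 tested, 0 had a positive and 11 a negative tissue difference, 17 fell in the choroid and 3 in the retina (against 0.546% negative, 4.7% and 0.901% of all genes tested), and the median change was -3.11 in the choroid and -0.21 in the retina. Of these 18, however, 7 were at or under the floor in control-food retinas, where a full loss cannot be sized, and they held 6 of the 11 calls. The 5 calls above the floor were Lyve1, Mgl2, Folr2, the lectin Clec10a and the transcription factor Maf. Among the 10 with a control-food mean of at least 10 in both tissues, 5 kept a smaller share in the retina than in the choroid, and 4 kept under 10% there. Among all 140 negative genes, 33 were at or under the retinal floor on control food. Cd163, a haemoglobin scavenger receptor, ranged from 626.2 to 1403 in control-food choroids and from 9.84 to 46.2 with PLX5622, while the retinas held 0 to 8.10 and 0. The choroid thus kept 2.15% (tissue difference -4.38 ± 0.48, adjusted p = 2.92e-05), and no fold can be given for the retina. The lectins Cd209g, Cd209f and Cd209b and the complement receptor Vsig4 had the same form, with falls of at least 20.7-fold, 51.8-fold, 14.1-fold and 11.9-fold in the choroid. In the retina Cd209g, Cd209b and Vsig4 were listed at 0 in all 20 libraries, and Cd209f in 19 of 20. Folr2, a folate receptor, had a mean above the floor in both tissues, although single retinas lay under it. It kept 6.5% in the choroid and 97.7% in the retina, where the ranges were 1.05 to 51.3 and 2.06 to 48.5 (-4.07 ± 0.72, adjusted p = 0.00466).

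Where border macrophage genes were measurable in control-food retinas, some fell there too. Mrc1, the mannose receptor, ranged from 0 to 75.0 in control-food retinas and from 0 to 3.48 with PLX5622, and from 3210 to 4797 and 104.5 to 353.1 in the choroids. It fell in both tissues, and the tissue difference was -0.46 (95% confidence interval -1.86 to 0.94, adjusted p = 0.936). With 5 added in place of 1 it was called at -1.96 (adjusted p = 0.0163). F13a1, the coagulation factor XIII A chain, kept 11.9% in the choroid and fell at least 8.44-fold in the retina, with a difference of 0.19 (-1.23 to 1.60, adjusted p = 0.982). These intervals are wide, and with 5 added the difference of F13a1 was -1.11 (adjusted p = 0.288).

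Other MP genes fell in both tissues with no called tissue difference, among them P2ry12, a purinergic receptor of microglia. It ranged from 111.9 to 167.3 in control-food retinas and from 6.13 to 25.6 with PLX5622, and from 211.4 to 291.2 and 12.03 to 58.0 in the choroids. The groups were apart in both tissues, with changes of -3.22 ± 0.19 in the retina and -3.06 ± 0.19 in the choroid, and the tissue difference was 0.16 (95% confidence interval -0.44 to 0.76, adjusted p = 0.955). On the same list, Tmem119 thus changed in the retina only by the test and P2ry12 in both tissues. Spp1, the secreted phosphoprotein osteopontin, kept 30.8% in the choroid and 30.6% in the retina (-0.12, -0.66 to 0.43, adjusted p = 0.969). Among genes that fell by more than 1 on the log2 scale in both tissues, the smallest differences were those of Gpr65, a proton-sensing receptor (0.03), Fcrl2, an Fc receptor-like protein (0.06), and Cd300lb, a receptor of the CD300 family (0.07). The PLX5622 means of all 3 were at or under the retinal floor, so these small differences depend on the constant added. With 5 in place of 1, Gpr65 was called at -1.27 (adjusted p = 0.00151) and Fcrl2 at -1.94 (adjusted p = 0.00612), whereas Cd300lb was not called. Fcrl2, known as the microglia marker Fcrls in older annotations and not counted in the list above, was listed at 0 in 10 of 10 PLX5622 retinas, against 8.08 to 102.2 on control food, and fell from 831.3 to 2679 down to 20.7 to 149 in the choroid. Aif1, which encodes the MP marker IBA1, kept 17.3% in the choroid and 12.4% in the retina (0.80, -0.41 to 2.01, adjusted p = 0.768). Cd68, a lysosomal glycoprotein of MP, kept 35.6% and 20.4% (0.75, 0.12 to 1.38, adjusted p = 0.405), an interval that does not include 0.

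Steap4 (ENSMUSG00000012428, GRCm39 chr5:8010260-8032214), a metalloreductase, was the single gene called in both tissues with opposite signs. In the choroid it ranged from 1711 to 2225 (median 1905) on control food and from 2002 to 3281 (median 2508) on PLX5622. In the retina it ranged from 21.3 to 174.6 (median 85.1) and from 7.27 to 41.9 (median 23.6). The groups overlapped in both tissues, although the medians moved apart. It rose by 0.37 ± 0.08 in the choroid and fell by 1.91 in the retina, a tissue difference of 2.28 ± 0.38 (adjusted p = 0.00278). The highest control-food values in the retina were those of mice 5, 1 and 6 (174.6, 160.5 and 140.9). Without these mice the tissue difference was 1.84 (adjusted p = 0.0291). Within control mice alone the difference was 2.37 (adjusted p = 0.153) and within Tgfbr2ΔEC mice 2.19 (adjusted p = 0.177).

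Among the positive genes, 12 rose in the choroid with no call in the retina, and they were picked after their values were seen. Over all genes tested, with or without a called tissue difference, 509 rose in the choroid with no call in the retina. Pdzrn4, a PDZ-domain protein, ranged from 30.6 to 72.5 in control-food and from 74.1 to 184.1 in PLX5622 choroids with no overlap, against 39.6 to 62.4 and 41.4 to 65.4 in the retinas (1.01 ± 0.19, adjusted p = 0.00688). Adcyap1r1, the receptor of the neuropeptide PACAP, rose to 196% of its control-food mean in the choroid and stood at 116% in the retina. Abcb1a, the drug efflux pump P-glycoprotein, stood at 128% and 85.8%. Without mice 1, 5 and 6 the difference of Pdzrn4 was 0.83 (adjusted p = 0.0685) that of Adcyap1r1 0.72 (adjusted p = 0.156) and that of Abcb1a 0.52 (adjusted p = 0.103). With the neural retina covariate Adcyap1r1 was not called either (adjusted p = 0.135). Of 12 endothelial genes 7 rose in the choroid, against 1.99% of all genes tested, and none was called for the tissue difference, with medians of 0.27 in the choroid and -0.08 in the retina. Of 10 pericyte and smooth muscle genes 3 rose in the choroid, and their medians were 0.2 and -0.16.

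**Figure D4:**
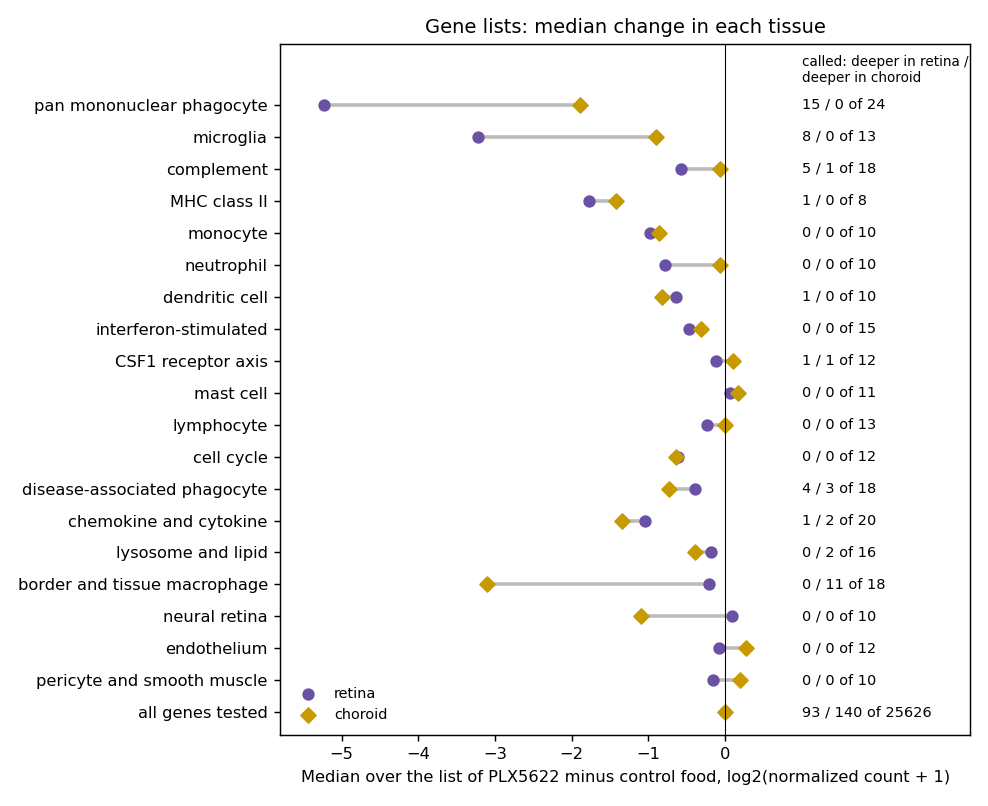
Median change with PLX5622 over each gene list in the retina (circles) and the choroid (diamonds), on the log2(normalized count + 1) scale, with the number of genes called deeper in retina and deeper in choroid at the right. The general MP and microglia lists lie further left in the retina (-5.23 and -3.22), and the border macrophage list in the choroid (-3.11).

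Antigen presentation, activation and cytokine genes were split. Of 8 MHC class II genes 7 fell in the choroid and 2 in the retina (4.7% and 0.901% of all genes tested), and 1 was called for a positive difference (0.363%). This was Cd74, the invariant chain, with 31.96 to 1030 normalized counts in control-food retinas, 0 to 35.4 in PLX5622 retinas and 37.1% left in the choroid (3.57 ± 0.75, adjusted p = 0.0194). The MHC class II genes were higher in the retinas of mice 1, 5 and 6 (mean log2 level 6.42 to 7.18) than in the other control-food retinas (3.28 to 4.72), and without these mice Cd74 was not called (2.45, adjusted p = 0.0952). Among 18 genes of disease-associated phagocytes, 4 had a positive difference (Trem2, Clec7a, Ccl6 and Itgax) and 3 a negative one (Ctsb, Lpl and Fabp5). Over all genes tested these shares were 0.363% and 0.546%. In this list 13 genes fell in the choroid and 6 in the retina. Trem2, a lipid-sensing receptor, fell in the choroid from 1052 to 1931 down to 259.9 to 902.7 and fell at least 23.7-fold in the retina (3.44 ± 0.39, adjusted p = 4.03e-05). Ctsb, the protease cathepsin B, kept 56.5% and 86.9% (-0.63 ± 0.10, adjusted p = 0.00267). Ccl6 was not called with 5 added (0.91, adjusted p = 0.477), nor Fabp5 without mice 1, 5 and 6 (-0.70, adjusted p = 0.235) or with the neural retina covariate (adjusted p = 0.157). Apoe, the lipid carrier, kept 61.1% and 86.3% and was not called (-0.50, 95% confidence interval -0.89 to -0.11, adjusted p = 0.357).

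Of 20 chemokines and cytokines, 15 fell in the choroid and 5 in the retina (4.7% and 0.901% of all genes tested), with 1 positive difference, in Il1a, and 2 negative ones, in Ccl8 and Cxcl16. Il1a, which encodes interleukin-1 alpha, ranged from 2.52 to 31.4 in control-food retinas and from 0 to 2.16 with PLX5622, and kept 42.8% in the choroid (1.71 ± 0.32, adjusted p = 0.00684). With 5 added in place of 1 its difference was 0.22 (adjusted p = 0.862). The difference of Cxcl16, -0.749 with all mice, was not called without mice 1, 5 and 6 (-0.82, adjusted p = 0.0565). With the neural retina covariate that of Cxcl16 was not called either (-0.75, adjusted p = 0.0557). Ccl8, a monocyte chemoattractant, kept 7.7% in the choroid and had a mean under the floor in the retinas on both diets (-2.75 ± 0.48, adjusted p = 0.00379). It was not called with 0.5 added in place of 1, nor within either genotype alone. Of 16 lysosome and lipid genes 10 fell in the choroid and 0 in the retina, again against 4.7% and 0.901% of all genes tested. Negative differences (0.546% of all genes tested) were called for the scavenger receptor Cd36 and the protease Ctsc. Cd36 kept 35.9% in the choroid and 87.2% in the retina (-1.26 ± 0.19, adjusted p = 0.0011).

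Other leukocyte lists gave few or no tissue differences. Of 10 monocyte genes 5 fell in the choroid and 1 in the retina (4.7% and 0.901% of all genes tested), and none differed. Ccr2 kept 28.3% in the choroid, and its tissue difference of 1.78 had a 95% confidence interval of 0.01 to 3.56 (adjusted p = 0.539). Without mice 1, 5 and 6 the difference was 0.39 (adjusted p = 0.976). Of 10 dendritic cell genes the integrin Itgax (CD11c) alone differed (2.54 ± 0.32, adjusted p = 0.00013), with 3.21 to 34.2 in control-food retinas, 8 of 10 PLX5622 retinas at 0 and 48.6% left in the choroid. With 5 added its difference was 0.82 (adjusted p = 0.113). None of 10 neutrophil, 11 mast cell, 13 lymphocyte, 15 interferon-stimulated or 12 cell cycle genes differed. A mean of at least 10 in both tissues was reached by 2, 3, 1, 14 and 9 of them. For most neutrophil, mast cell and lymphocyte genes a tissue difference could therefore hardly be measured. The mast cell protease Cpa3 was listed at 0 in all 20 retinas. Among the lower-expressed positive genes, the leukotriene receptor Cysltr1 kept 88.5% in the choroid, the nodal antagonist Lefty1 101%, and the immunoglobulin superfamily member Igsf6 35.5%, with retinal falls of at least 2.87-fold, 1.4-fold and 5.44-fold. None of these 3 was called with 5 added.

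The tissue difference was also compared between genotypes. No gene was called for it (limma, 0 of 25626, smallest adjusted p = 0.636), although before adjustment 1247 genes had p under 0.05. The estimates in control and Tgfbr2ΔEC mice were 5.88 and 5.80 for Tmem119, 2.54 and 1.99 for Csf1r, -1.77 and -1.84 for Hcls1 and -2.53 and -2.16 for Lyve1. Tested within 1 genotype, 32 genes were called in control mice and 189 in Tgfbr2ΔEC mice, with 10 mice each, and the difference between these counts was not tested.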

How the data were processed

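RNA-seq was run on retina and choroid of 20 mice, grouped by the labels' diet and genotype. The authors quantified reads with Salmon 1.10.1 against GRCm39 and normalized them with DESeq2 1.36.0. The deposited values are a signal per gene, called normalized counts here, scaled over both tissues together: the median ratio to the geometric mean of all libraries was 1.0082 in each of the 40, over 15800 genes. They are not whole numbers and whole reads could not be recovered (44.6% to 70.3% of low values within 0.1 of a whole read), so no count test was run and depth is approximate.

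Differences were fitted with limma 3.58.1 (variance trend) in R 4.3.3 on log2(normalized count + 1), in which folds of low genes are understated. The pairing comes from the labels: both tissues of a number are from 1 mouse, and sex-linked genes matched between them in 20 of 20 mice. The median correlation of deviations was 0.181 within mice (-0.197 to 0.354) and -0.036 between mice. In 14 of 20 mice the retina correlated best, within its group, with the choroid of the same number. Symbols came from GENCODE release 39 for mouse (53700 of 54307 matched). For 1 listed gene, Fcrls, no entry carried that symbol; the annotation lists it as Fcrl2, and it is not in the list counts. Fits were tested on simulated data. Alternatives covered the pseudocount, filter, scaling, covariates, pairing and left-out mice, and 1 (without mice 1, 5 and 6) was added after the data were seen. The libraries are from separate mice, and floors cover counting error only.

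Members and 34 gene lists were chosen with earlier results of these data known. Named genes are the 8 of lowest p per direction (mean of at least 10 in both tissues), 4 per direction among the others, genes of opposite sign, the 3 most equal falls, a fixed list of 25 and the leading gene of each list; others were picked after their values were seen. One named gene is not reported here. Sex was used by the authors as a covariate but is not in the labels, so a score from the data stood in for it in 1 alternative.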

Additional observations from a re-analysis of the deposited data

Results flagged for a closer look

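The 233 genes called for the tissue difference stand here because the same contrast of diets gave different effects in retina and choroid, by a test of that difference. Steap4 stands here as the gene called in both tissues with opposite signs, with a tissue difference of 2.28 on the log2 scale.

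Within groups of 5 mice, the gap of the most extreme choroid minus retina value to its nearest neighbour exceeded Dixon's limit (0.71 of the range) in 11 of 215 groups of named genes, where chance gives about 10.8. In Tgfbr2ΔEC mice on PLX5622 these were Tmem119 in mouse 18 (9.48, the others 10.6 to 10.7), Cx3cr1 in mouse 17 (5.09, the others 7.02 to 7.79), C1qc in mouse 19 (6.79, the others 9.06 to 9.31), Ccr2 in mouse 17 (5.67, the others 9.13 to 9.89) and Cd209g in mouse 16 (0.51, the others 0). In these libraries the retina held 1.02 normalized counts of Tmem119, 4.19 of Cx3cr1, 2.05 of C1qc and 14.3 of Ccr2. In Tgfbr2ΔEC mice on control food they were Selplg in mouse 7 (0.95, the others 3.0 to 3.34), Lyve1 in mouse 10 (0.68, the others -0.42 to -0.30), Lefty1 in mouse 9 (5.50, the others 4.14 to 4.36) and C3 in mouse 10 (8.78, the others 4.78 to 5.60). In control mice on control food they were Csf2ra in mouse 1 (0.69, the others 1.07 to 1.2) and Ctsb in mouse 2 (2.75, the others 2.81 to 2.83).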

How the results depend on the processing

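The count of 233 genes was 182 to 327 under 14 alternatives to the processing and 199 to 301 when 1 mouse was left out at a time. In control mice alone it fell to 32 (22 positive, 10 negative). A pseudocount of 5 gave 313 genes (73 positive, 240 negative), and Tgfbr2ΔEC mice alone gave 189 (37 positive, 152 negative). Without the replicate block, treating the tissues of a mouse as unpaired, 327 genes were called, 219 of them shared, so the pairing moved the count by under 1.5 times. With the neural retina level as a covariate 198 genes were called, 178 of them shared. Leaving out 1 mouse gave 1451 to 2115 genes in the choroid and 199 to 270 in the retina, and leaving out mice 1, 5 and 6 together, chosen after the data were seen, gave 1135 in the choroid and 171 in the retina. The tissue difference by genotype stayed at 0 genes under its 5 alternatives. Of 38 named genes with a call, 14 kept it in all alternatives, and the sign changed for none of the 38. For 16 the call was lost only in the fits of control mice alone or Tgfbr2ΔEC mice alone. Among these, Pik3ap1, Steap4 and Ctsb lost it in both fits. Cd74 also lost it without mice 1, 5 and 6. The uncalled Gpr65 and Fcrl2 turned negative with a pseudocount of 5 (-1.27, adjusted p = 0.00151, and -1.94, adjusted p = 0.00612). Mrc1 gained a call with it (-1.96, adjusted p = 0.0163). With that pseudocount Itgax, Cysltr1, Lefty1, Igsf6 and Il1a lost theirs. A pseudocount of 0.5 lost Ccl8. The cause of these changes was not tested. Depth limits the retinal values at or under 3 reads.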
